A study of Mus musculus with 622 samples.

Results

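Insulin-only cells are the islet cells in which insulin RNA stands almost alone among the islet hormones. They numbered 352 of the 622 single cells measured. A cell was selected on its own RNA values by 3 conditions. At least 1000 genes reached 1 RPKM (reads scaled to the length of the gene and to the mapped reads of the cell), Ins1 and Ins2 together held at least 99% of the summed RPKM of Ins1, Ins2, Gcg, Sst and Ppy, and Tyrobp, an immune cell adaptor gene, was below 100 RPKM. The cells were taken from islets of C57BL/6 mice of wild type genotype, with no treatment named in the labels. Each was lysed and its cDNA amplified in a chamber of a C1 microfluidic chip. The labels name no animal, age, chip or condition, so that the 622 cells count as 1 sample. Cells are not replicates, no test was possible, and every value below is a description of these libraries.

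Beta cells make, store and release insulin. Preproinsulin enters the endoplasmic reticulum (ER), is folded there, and is cut by prohormone convertases and carboxypeptidase E in secretory granules, which also hold islet amyloid polypeptide (Iapp), granins and zinc. Glucose enters the mouse beta cell through the transporter Glut2 (Slc2a2), its metabolism closes ATP-sensitive potassium channels, and calcium entry then triggers granule release.

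Of the 622 cells, 593 passed the gene condition, and the insulin-only cells made up 59.4% of these (exact Clopper-Pearson 95% interval 55.3 to 63.3, counting error only). The other 241 passing cells were 121 insulin-led cells below 99%, 54 led by glucagon, 26 by somatostatin, 24 by pancreatic polypeptide (PP), and 16 with Tyrobp at 100 RPKM or more, of which 8 had met the insulin condition. The second comparison group below is the 107 cells led by another hormone, which are these 104 glucagon-, somatostatin- and PP-led cells and 3 of the 16 cells high in Tyrobp. At the insulin threshold, the nearest cells inside had shares of 99.01, 99.01 and 99.10% and the nearest outside 98.2, 98.8 and 98.9%. Of cells that met the other conditions, the lowest gene counts inside were 1099, 1547 and 1663, and the only 3 outside were 250, 288 and 964. Tyrobp, likewise, was at most 16.0 RPKM inside and at least 166 RPKM outside.

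The columns of the table come in 2 sets that the labels do not mention, written at full precision or rounded to 4 decimals. What else distinguishes the sets is not given. The insulin-only share was almost the same in both, 201 of 340 cells (59.1%) and 151 of 253 cells (59.7%). Mapped reads per insulin-only cell ran from 135830 to 4351306 with a median of 1158970, and the medians were 830483 at full precision and 1674583 in the rounded columns. Detected genes went the other way, with medians of 5597 and 4049 genes at 1 RPKM or more. With each cell thinned to 250000 reads, which left out 3 insulin-only cells, the medians were 5777 and 4149 genes with a read. Values in each set therefore stand beside the main results.

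The label was checked against 7 beta cell markers, Ins1, Ins2, Iapp, Ucn3, G6pc2, Slc2a2 and Pcsk1. All 7 reached 1 RPKM in 303 of the 352 cells, at least 6 did in 343, and no cell had fewer than 5. Among the 107 cells led by another hormone, 15 held all 7. Ins1 and Ins2 chose the cells, so their levels are not evidence for the label. The other 5 genes were outside the rule, though measured in the same libraries.

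**Figure D1:**
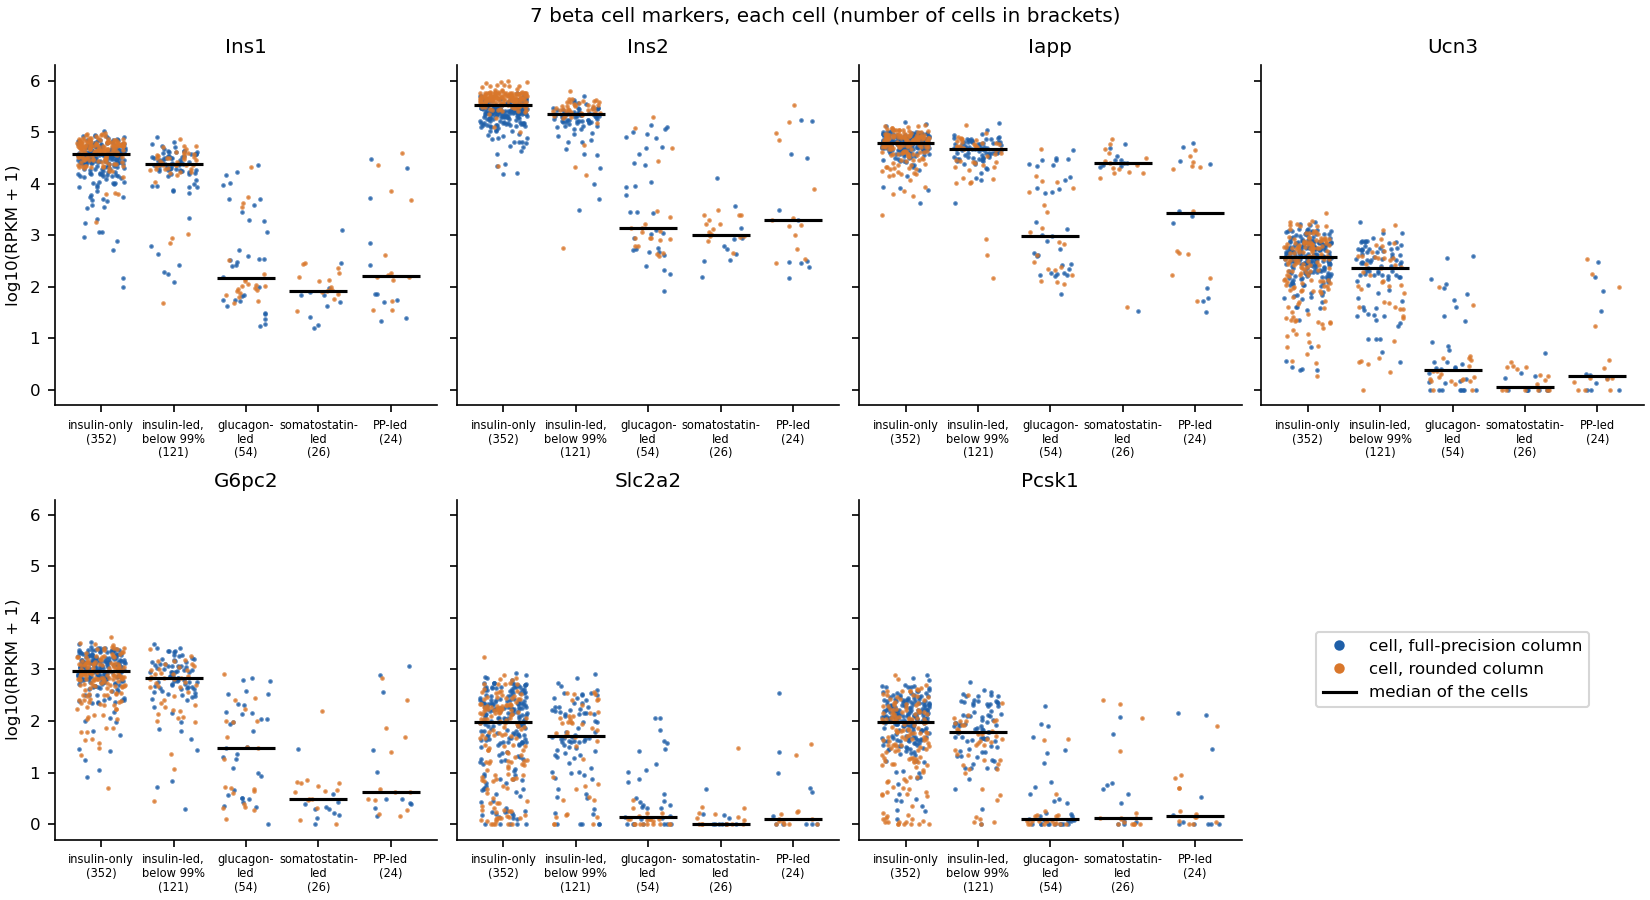
Level of the 7 beta cell markers in each passing cell, as log10(RPKM + 1), by leading hormone, with cells with Tyrobp at 100 RPKM or more left out. Points are cells, coloured by column set, and bars are medians. Ucn3, Slc2a2 and Pcsk1 had medians of 369.6, 94.1 and 93.8 RPKM in the insulin-only cells and under 2 RPKM in cells led by each other hormone, while Iapp was also high in somatostatin-led cells.

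Ins2 (chr7:142678656-142679726, GRCm38) ran from 15230 RPKM in the lowest insulin-only cell to 991784 in the highest, with a median of 329112. Its median was 219312 in insulin-led cells below 99%, 1386 in glucagon-led, 1015 in somatostatin-led and 1986 in PP-led cells. Ins1 (chr19:52264297-52265015), the other mouse insulin gene, ran from 96.4 to 104880 RPKM with a median of 38280. Ins2 exceeded Ins1 in all 352 cells, by a median of 8.82 times and a range of 3.50 to 244. The lowest Ins1 values formed a tail, with 5 cells below 1000 RPKM. Ins1 and Ins2 are close paralogs that can share reads, and how such reads were assigned is not given in the sources used here.

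Iapp (chr6:142298425-142303820), which encodes the amyloid peptide secreted with insulin, had a lowest value of 2483, a median of 61811 and a highest value of 155467 RPKM. It was above Ins1 in 272 of the 352 cells. Unlike the insulin genes, Iapp had almost the same mean in both column sets, 62305 RPKM where values are at full precision and 61195 where they are rounded. Its median was 46950 RPKM in insulin-led cells below 99%, 969.2 in glucagon-led, 24963 in somatostatin-led and 2687 in PP-led cells. Iapp overlaps Slco1a5 in the annotation. High Iapp also occurred in somatostatin-led cells, in which the median of Ins2 was 1015 RPKM.

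Ucn3 encodes urocortin 3, a peptide that beta cells release to stimulate somatostatin secretion. It reached 1 RPKM in 351 of the 352 insulin-only cells and ranged from 0.88 to 2651 RPKM, with a median of 369.6. The medians were 231.8 RPKM in insulin-led cells below 99%, 1.42 in glucagon-led, 0.156 in somatostatin-led and 0.833 in PP-led cells. G6pc2, the islet glucose-6-phosphatase subunit, was present in all 352 cells, from 4.08 to 4332 RPKM with a median of 914.9. Its medians were 28.9, 2.02 and 3.21 RPKM in the glucagon-, somatostatin- and PP-led cells, while most insulin-led cells below 99% held more than 100 RPKM. Both genes were therefore high in nearly every insulin-only cell, with a few cells at the level of the other types.

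Slc2a2 and Pcsk1, which encodes prohormone convertase 1/3, were less evenly found. Slc2a2 was listed at 0 in 10 insulin-only cells and had a median of 94.1 and a highest value of 1711 RPKM. Pcsk1 was listed at 0 in 6 cells and had a median of 93.8 and a highest value of 791 RPKM. Both were lower in the rounded columns, with medians of 56.5 against 113.9 RPKM for Slc2a2 and 52.5 against 117.7 RPKM for Pcsk1. In the 107 cells led by another hormone they reached 1 RPKM in 34 and 37 cells. Most insulin-led cells below 99% also reached 1 RPKM of both.

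The other hormones were seldom at 0 in the insulin-only cells. Their levels were far below insulin, but the rule itself limits their share of the hormone sum. Their distance from insulin and their highest values are therefore not independent of the selection. All of Gcg, Sst and Ppy reached 1 RPKM in 283 cells and none of the 352 lacked all 3. Gcg had a median of 43.6 and a highest value of 2816 RPKM, Sst 55.4 and 2750, and Ppy 12.2 and 2556. In the opposite direction, Ins1, Ins2 and Iapp reached 1 RPKM in all 107 cells led by another hormone, whose median depth was 1129411 mapped reads. Trace hormone reads were thus present in nearly every library, and whether they come from the cell itself, from free RNA or from carry-over between libraries was not tested. No doublet caller was run, and a pair of beta cells in 1 chamber would meet the rule.

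Insulin RNA dominated these libraries. Ins1 and Ins2 together took between 2.20 and 78.7% of the RPKM of each cell, with a median of 46.3%, and Iapp a median of 7.55%. By mean RPKM, the 3 leading genes, Ins2, Iapp and Ins1, held 51.9% of the total, the leading 10 held 63.1%, the leading 30 held 70.3% and the leading 100 held 74.9%. Ins2 was the highest gene in 338 cells, Iapp in 8 and the mitochondrial gene COX3 in 6. The insulin share was lower in the full-precision columns, with a median of 39.1% against 54.4%, and mean Ins2 was 256838 against 469764 RPKM. Whether more insulin RNA per cell or a difference in library preparation goes with the rounded columns cannot be told apart, since no label tells the sets from each other.

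Genes of the mitochondrial chromosome filled 15 of the 30 places of highest mean. They were led by COX3, a subunit of cytochrome c oxidase, at 26857 ± 27437 RPKM (SD over cells, n = 352), followed by COX2 at 15349 ± 16137, CYTB at 12294 ± 12977, and by ATP8, ND1, COX1, the ribosomal RNA mt-Rnr2, ATP6 and ND4 at means of 5758 to 9978. Gm10925, at a mean of 12860 RPKM, is a pseudogene on chromosome 1 whose listed synonyms include Atp6, so that its reads and those of mitochondrial ATP6 may not be separable. In the cells led by another hormone COX3 had a mean of 27651 and COX2 of 16041 RPKM. Over these cells the 13 mitochondrially encoded genes listed had a median log2 ratio of -0.04, which was -0.47 at full precision and 0.56 in the rounded columns, so the sets lay on opposite sides of 0. ATP8, ATP6 and COX3 overlap one another in the annotation, as do ND5 and ND6, so their separate levels are uncertain.

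Mitochondrial RNA was also where individual cells stood apart. Its share of RPKM had a median of 11.2% and ran from 1.29 to 87.9%, with 40 cells at 25% or more and 9 at 50% or more. The 40 cells were spread over both sets, 23 at full precision and 17 in the rounded columns. Insulin was under 10% of RPKM in 12 cells. Across the 352 cells the insulin and mitochondrial shares had a Spearman correlation of -0.53, with -0.57 and -0.44 within the column sets, where both are parts of the same total. The 30 genes of highest mean were the same without the 40 cells.

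Beyond insulin, Iapp and mitochondrial RNA, the leading 30 held genes of protein turnover, of the granule and of translation. Ubb, a polyubiquitin gene, had a mean of 3697 RPKM, and Ftl1, the ferritin light chain, 2377. Granule genes were Resp18 at 2272, the granin Scg2 at 1625, chromogranin A (Chga) at 1285 and carboxypeptidase E (Cpe) at 1281 RPKM. Rpl41, a ribosomal protein gene, had a mean of 1947, the elongation factor gene Eef1a1 1478 and the nuclear RNA Malat1 1812 RPKM. Of the 30 genes, 29 were shared between the lists made in each column set, and 25 with the 30 leading genes of all other cells.

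**Figure D2:**
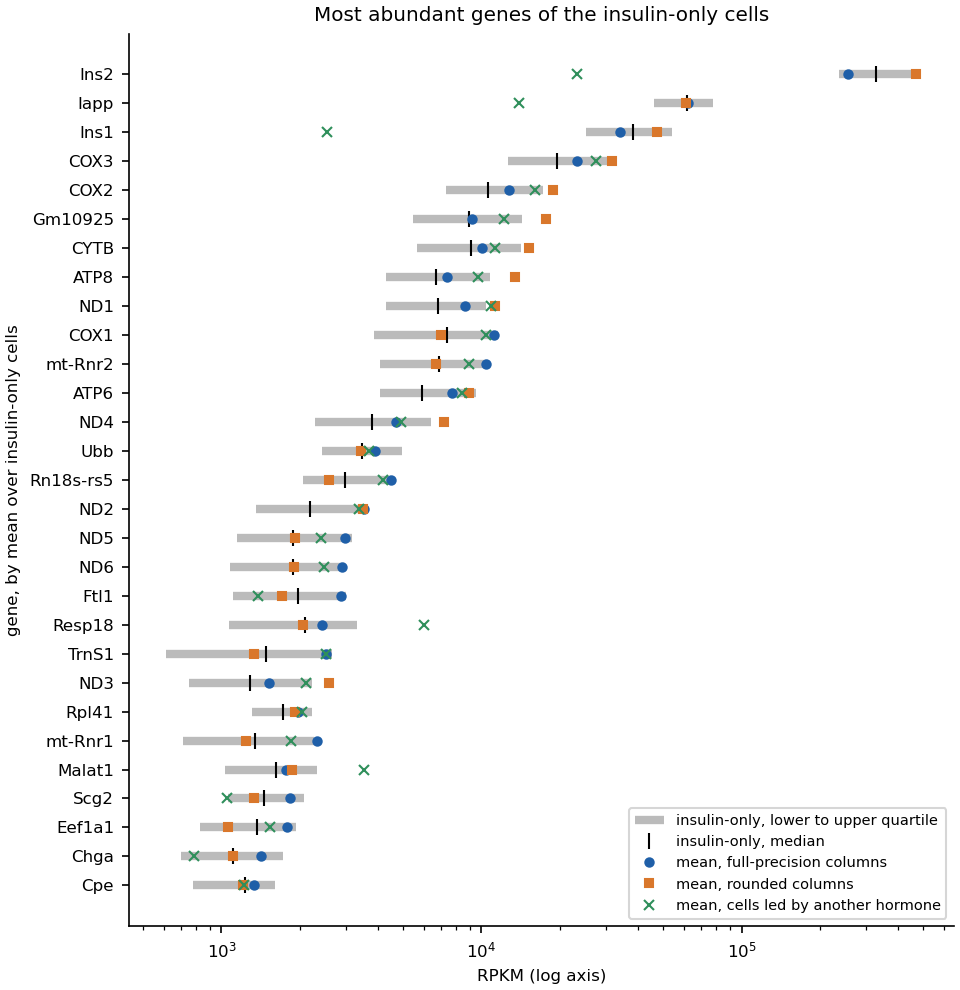
Mean RPKM of 29 of the 30 most abundant genes of the insulin-only cells on a log axis, in each column set (circles and squares) and in the 107 cells led by another hormone (crosses). Grey bars span the quartiles and ticks the median over the 352 cells. Ins2, Iapp and Ins1 were the genes furthest above their means in the cells led by another hormone, and Resp18 and Malat1 lay below theirs.

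Evenness was read from the coefficient of variation (CV, the SD divided by the mean over cells). Only 55 genes reached 1 RPKM in every insulin-only cell, and 53 of them had a mean of at least 100 RPKM, of which 13 lay on the mitochondrial chromosome. The 20 most even of the 53 were led by Iapp with a CV of 0.42, Ins2 with 0.48 and Ins1 with 0.52. Next came Pcsk2, the convertase that with Pcsk1 cuts proinsulin, with 0.54, and Rpl41, Ubb, Scg2 and Scg5 with 0.54, 0.54, 0.55 and 0.55. No mitochondrial gene was among the 20, and COX3 had a CV of 1.02. For comparison, the median CV of all 491 genes with a mean of at least 100 RPKM was 1.05.

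Among the 20 were genes of the secretory granule. Pcsk2 ran from 4.27 to 1473 RPKM with a median of 444.5, Scg2 from 16.2 to 5037 with a median of 1463, and Cpe from 8.83 to 4570 with a median of 1228. Chga, Scg3, Scg5 and Resp18 also belonged to the 20. Outside the granule the list held G6pc2 (CV 0.69), the ATP-citrate lyase gene Acly (0.63), cyclin D2 (Ccnd2, 0.65), the ER chaperone gene Hsp90b1 (0.66), Eef1a1 (0.64), Rpl4 (0.70) and beta-actin (Actb, 0.72). The remaining entry, Entrez ID 102635849, had no symbol in the RefSeq table. As a selection by level and CV these genes were chosen by these values, and no test of them is given.

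The level of evenness depended on the column set. In the full-precision columns 145 genes with a mean of at least 100 RPKM reached 1 RPKM in every cell, against 57 in the rounded columns, and 52 were in both lists. Of the 20 most even genes, 10 were shared between the sets. Iapp held rank 1 in the full-precision columns (CV 0.36) and rank 3 in the rounded ones (0.49), whereas Ins1 held rank 30 in the former (0.59) and rank 2 in the latter (0.40). After thinning to 250000 reads, 15 of the 20 still had a read in each of the 349 cells deep enough.

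In the other 241 cells, which mix several types, 45 genes reached 1 RPKM in every cell, and 30 did so in every cell of both groups. Of the 20 most even genes of each group, 7 were shared, among them Ubb, Rpl41, Cpe, Eef1a1 and Iapp. Ubb and Rpl41 had much the same CVs in the other cells, 0.52 and 0.57. Iapp, Ins2, Ins1 and G6pc2 had CVs of 0.87, 1.04, 1.11 and 1.29 there, about 2 times those of the insulin-only cells. For Ins1 and Ins2 the rule itself selects on the level.

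**Figure D3:**
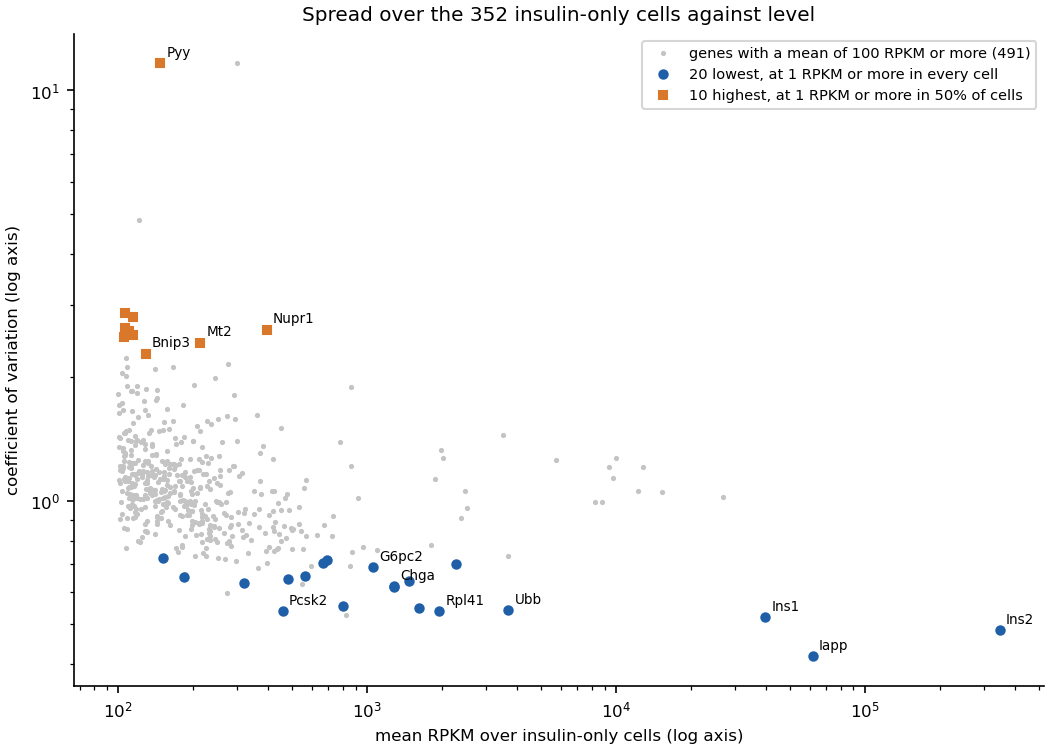
Coefficient of variation against mean RPKM over the 352 insulin-only cells, both on log axes, for the 491 genes with a mean of at least 100 RPKM. Blue circles are the 20 most even genes that reached 1 RPKM in every cell and orange squares the 10 least even genes found in at least 50% of cells. Iapp, Ins2 and Ins1 combine the highest levels with CVs of 0.42 to 0.52, and Pyy lies at 11.6.

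To show the regulatory letters of even, highly expressed beta cell genes, the 250 bases before the start of Ins1, Iapp and G6pc2 are printed 5′ to 3′ from RefSeq (GRCm38.p6, all on the plus strand), with each CATCTG in capitals. CATCTG, which reads CAGATG on the opposite strand, is the E-box of the insulin promoter at which the factor Neurod1 is known to bind, and TAAT, which reads ATTA on the opposite strand, is the core of the A-boxes bound by Pdx1. The windows are chr19:52264047-52264296 for Ins1, chr6:142298175-142298424 for Iapp and chr2:69210823-69211072 for G6pc2.
Ins1: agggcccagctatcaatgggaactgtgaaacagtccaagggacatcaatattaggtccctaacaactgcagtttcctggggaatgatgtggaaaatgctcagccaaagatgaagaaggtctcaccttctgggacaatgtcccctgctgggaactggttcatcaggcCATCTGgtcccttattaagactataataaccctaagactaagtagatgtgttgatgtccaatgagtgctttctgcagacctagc
Iapp: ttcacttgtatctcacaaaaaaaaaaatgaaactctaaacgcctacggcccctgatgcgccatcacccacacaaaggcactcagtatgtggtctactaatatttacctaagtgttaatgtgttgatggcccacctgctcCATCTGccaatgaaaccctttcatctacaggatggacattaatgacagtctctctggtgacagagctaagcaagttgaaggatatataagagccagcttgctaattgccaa
G6pc2: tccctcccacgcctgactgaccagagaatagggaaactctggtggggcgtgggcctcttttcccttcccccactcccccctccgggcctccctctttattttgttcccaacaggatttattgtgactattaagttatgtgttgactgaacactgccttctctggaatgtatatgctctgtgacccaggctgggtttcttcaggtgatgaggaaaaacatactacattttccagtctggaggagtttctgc

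On either strand, CATCTG occurs 1 time before Ins1, 1 time before Iapp and 0 times before G6pc2, and in 14.4% of 32851 RefSeq promoter windows of the same length. TAAT occurs 3, 5 and 1 times, and at least 1 time in 54.9% of the windows, with overlapping matches of both strands each counted. These counts describe letters in the printed windows only.

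At the other end, the least even genes found in at least 50% of cells were each listed at 0 in some cells and reached at least 2579 RPKM in 1 cell. Pyy, which encodes peptide YY, had a CV of 11.6, with a median of 9.87 RPKM and 1 cell at 31492. Without that cell its CV was 6.37, and 4 cells exceeded 1000 RPKM. Eif3i and Mrpl33 rested on 1 cell each, with CVs of 2.86 and 2.81 that became 1.44 and 1.47 without it.

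Nupr1, a stress-induced nuclear protein gene, was listed at 0 in 98 cells, reached 1 RPKM in 235, and had an upper quartile of 353.1 and a highest value of 12324 RPKM. Mt2, a zinc- and copper-binding metallothionein gene, was at 0 in 85 cells and reached 5518 RPKM, and Bnip3, a mitophagy receptor gene, was at 0 in 60 and reached 2862. The medians of all 3 were higher in the full-precision columns, at 57.6 against 1.40 RPKM for Nupr1, 87.6 against 5.45 for Mt2 and 74.0 against 9.64 for Bnip3. Timm8b, the small RNA Bc1, Sat1 and Gcg completed the 10 genes. Of the 10 least even genes named within each set, 2 were shared between the sets.

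Some genes described as uneven among beta cells were on in few insulin-only cells. Lcn2, which encodes the siderophore-binding protein lipocalin 2, reached 1 RPKM in 55 cells and was at 0 in 295, with a highest value of 53750 RPKM. Npy, the neuropeptide Y gene, reached 1 RPKM in 15 cells, and Th, tyrosine hydroxylase, in 75. Gad1, which makes GABA, reached 1 RPKM in 179 cells with a median of 1.11 RPKM. Mean Lcn2 was 527.3 RPKM in the full-precision columns, 261.2 without its highest cell, and it was listed at 0 in every rounded column of these cells, and the part of the column set in this was not tested.

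The 2 insulin genes varied together across cells, and Iapp did not follow them. Over the 352 cells, Ins1 and Ins2 had a Spearman correlation of 0.80, with 0.88 and 0.72 in the column sets, in the same order as before. For Ins2 and Iapp it was -0.004, with 0.06 and -0.16. These are correlations over cells of 1 sample, whose values share each cell's depth and total, and shared reads between Ins1 and Ins2 were not tested.

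Against all 241 other cells, ratios were taken as log2 of mean RPKM + 1 in insulin-only over the other cells, for the 12823 genes whose mean reached 1 RPKM in one of the groups. The median of all these genes was -0.12. A ratio of at least 2-fold was reached upwards by 1.88% and downwards by 8.66% of them. The cells were chosen on genes of the same libraries, so that these ratios are descriptions without a test.

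The 15 highest ratios outside the genes of the rule were, in order, Chst11, Prss53, Ucn3, Bace2, Nell1, Kcnip1, Papss2, B830017H08Rik, Ppp1r1a, Slc2a2, Olfm4, Prlr, Sytl4, Fam151a and Dapl1. Their ratios ran from 1.73 to 1.19, with a median of 1.31. All were larger in the rounded columns than at full precision. Prss53 had 0.87 at full precision and 2.38 in the rounded columns, Nell1 0.85 and 2.32, and Olfm4 0.69 and 2.27. Fam151a differed least, at 1.21 and 1.25. At full precision Prss53, Nell1, Ppp1r1a, Olfm4, Prlr and Dapl1 were below 2-fold. Chst11, a chondroitin sulfotransferase gene, was first but low, with a mean of 20.2 RPKM and 1 RPKM or more in 187 of 352 cells. Prss53, a serine protease gene, had a mean of 121.5 against 45.2 RPKM and was found in 344 insulin-only and 148 other cells. Papss2, which makes the sulfate donor of sulfotransferases, had 185.1 against 72.5 RPKM and was found in 345 and 180 cells. The 15 genes reached 1 RPKM in 187 to 351 of the 352 insulin-only cells and in 67 to 183 of the 241 others, of which 121 are themselves insulin-led.

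The same genes stood further apart from the 107 cells led by another hormone. Ucn3 had a ratio of 4.11 there (463.3 against 25.8 RPKM), Slc2a2 3.94 (153.9 against 9.08) and Sytl4, a granule-docking protein gene also called granuphilin, 3.65 (66.9 against 4.41). Without the 1 cell of the 107 in which each was highest, the means of Slc2a2 and Sytl4 there were 5.91 and 2.80 RPKM. Likewise, the ratio of Olfm4 was 3.95. Prlr, the prolactin receptor, had 3.63, with 51.8 against 3.26 RPKM and detection in 341 of 352 against 24 of 107 cells. Bace2, a protease of the beta cell surface, had 3.50, Prss53 3.44, Fam151a 3.35, Olfm4 3.17, Ppp1r1a, an inhibitor subunit of protein phosphatase 1, 3.12, and the long noncoding RNA B830017H08Rik 3.10. Chst11, Kcnip1 and Dapl1 had the smallest of the 15, at 1.86, 2.03 and 2.12. Fam151a overlaps Mroh7 and Acot11 in the annotation and Prss53 overlaps Zfp646, and whether counting used strand is not given in the sources used here.

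Among the genes lower in the insulin-only cells were known markers of other islet cell types. Among the 15 lowest ratios were those of Pyy, Rbp4, Arg1, Gpx3, Gm9790, Tspan8, Dbpht2, Ttr, Ocrl, Ctsz, Etv1, Fbp1, Cadm1 and Clu, from -6.93 to -2.38. Pyy had a mean of 147.4 RPKM against 18127 in the other cells, and without its highest insulin-only cell the mean was 58.1 and the ratio -8.26. Rbp4, the retinol-binding protein gene, had 4.21 (2.05 without its highest cell) against 476.5 RPKM and reached 1 RPKM in 98 of 352 against 208 of 241 cells. Gpx3, an extracellular glutathione peroxidase gene, had 21.6 against 679.0, and arginase 1 (Arg1) 2.11 against 147.1 RPKM.

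Ttr, the transthyretin gene, was lower by ratio (-2.98) yet present in 344 of the 352 insulin-only cells, at a median of 384.6 RPKM. Clu behaved likewise, with 1 RPKM or more in 268 cells and a mean of 91.7 against 480.6 RPKM. Both were thus lower but still found in most insulin-only cells. The ratios named here kept their sign in each column set.

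**Figure D4:**
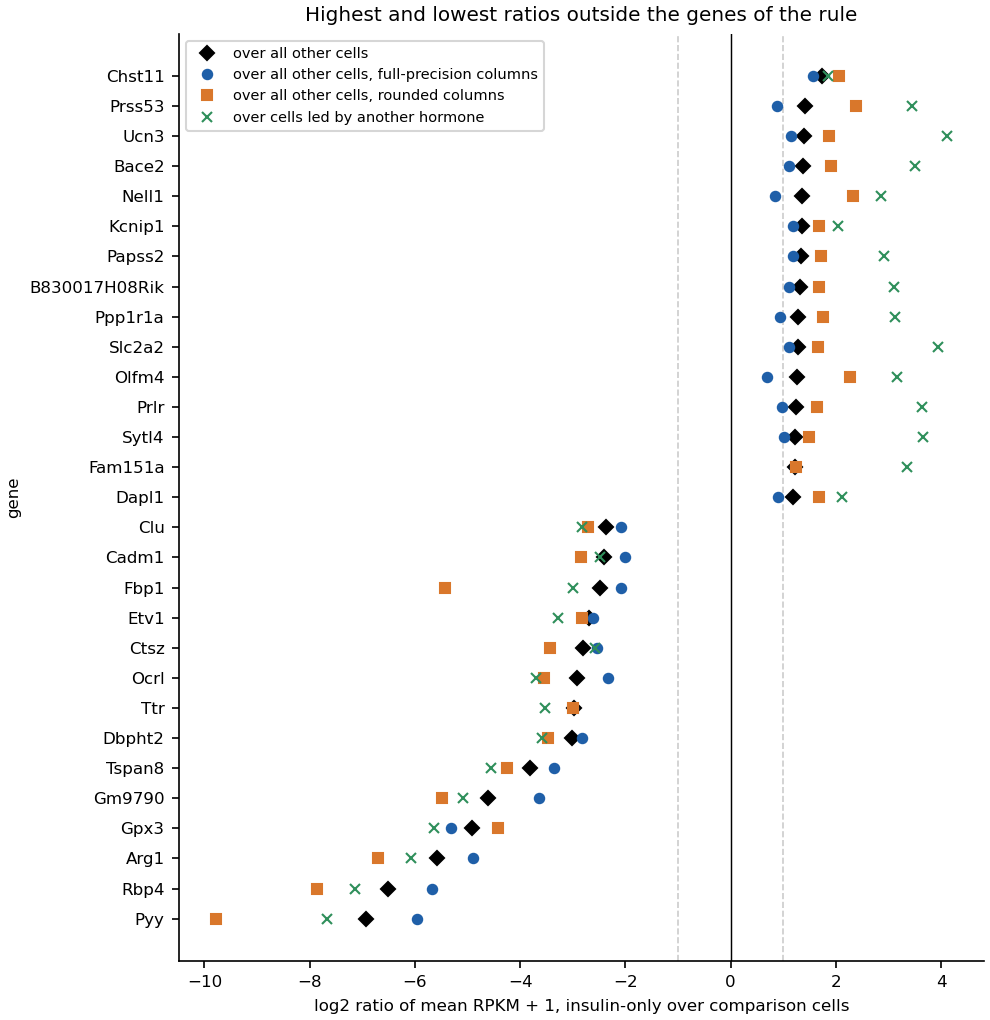
Log2 ratio of mean RPKM + 1 in insulin-only over comparison cells for the 15 highest genes and 14 of the 15 lowest genes outside the rule. Diamonds use all other cells, circles and squares the same within each column set, crosses the 107 cells led by another hormone, and dashed lines mark 2-fold. All genes shown keep their side of 0, and 14 of the 15 higher genes lie above 2 against cells led by another hormone, the exception being Chst11 at 1.86.

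Gene lists chosen for islet biology were then described by their counts and medians, leaving out the 6 genes of the rule. The background for each list is all genes compared. Over all other cells, 1.88% of these were at least 2-fold higher and 8.66% at least 2-fold lower. Their median was -0.12 over all other cells and -0.09 over cells led by another hormone. Most genes compared thus had ratios below 0, and the exact share on each side of 0 was not taken. Counts of list genes above or below 0 are given against that background only. Of 13 further beta cell genes compared, all 13 had ratios above 0 and 7 were at least 2-fold higher than in all other cells, with a median of 1.07. Against cells led by another hormone, where 6.96% of 12882 genes were at least 2-fold higher and 11.8% at least 2-fold lower, 11 of the 13 were at least 2-fold higher, with a median of 2.22. Ero1b, the ER oxidoreductin of the beta cell, was found in all 352 cells at a mean of 228.5 against 24.0 RPKM. Trpm5, a cation channel gene, had 19.7 against 0.557 (0.123 without the highest of the 107 cells), and the transcription factor genes Nkx6-1 and Pdx1 had 11.5 against 1.67 and 11.4 against 2.38 RPKM. Nkx6-1 and Pdx1 reached 1 RPKM in 245 and 212 of the 352 insulin-only cells. Mafa, a defining beta cell factor named here for its low level, was listed at 0 in 342 of the 352 cells, and Adcyap1 was listed at 0 in every cell. A listed 0 does not show absence, and the annotation used for counting is not given in the sources used here.

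Against all other cells, islet transcription factors as a whole were close to the background, with 12 of 26 above 0, none at least 2-fold higher and a median of -0.10. Of the 2 at least 2-fold lower, Fev, named after its value was seen, had a mean of 0.202 against 3.77 RPKM, with 0.0069 and 2.46 RPKM once the highest cell of each group was left out. Isl1, shared by all islet endocrine cells, had 68.4 against 125.4 RPKM. Neurod1 had 31.7 against 21.6, Pax6 35.8 against 43.0 and Nkx2-2 12.6 against 9.54 RPKM. Isl1 was thus the one of these 4 furthest from the other cells. Against cells led by another hormone, 13 of the 26 factors were above 0, with a median of 0.04. There, 3 were at least 2-fold higher and 3 at least 2-fold lower.

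Most folding genes of the ER were higher in the insulin-only cells. Of 30 chaperone and unfolded protein response genes, 29 had ratios above 0 against all other cells, 2 of them at least 2-fold, and the median was 0.38. Against cells led by another hormone all 30 were above 0, 10 at least 2-fold, and the median was 0.78. Hspa5 (BiP), the main ER chaperone, had 668.9 against 378.6 RPKM in the cells led by another hormone. Sdf2l1, an ER chaperone partner, had 56.9 against 11.6, Hyou1 19.1 against 5.33, Edem1, which directs misfolded glycoproteins to degradation, 19.7 against 5.54, and Manf 114.3 against 48.4 RPKM. The median of the list over all other cells was 0.36 at full precision and 0.55 in the rounded columns.

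Genes that move proteins into the ER lay in the same direction. Of 24 translocation and signal peptidase genes, 22 were above 0 against all other cells with a median of 0.33, and 23 against cells led by another hormone with a median of 0.46, none of them at least 2-fold. Spcs3, a signal peptidase subunit, had 202.0 against 104.2 RPKM in cells led by another hormone, and Sec61g, a subunit of the translocon, 277.5 against 158.8. Cytosolic ribosomal proteins lay on the other side, with 70 of 72 below 0 and a median of -0.32 against all other cells, and -0.40 against cells led by another hormone. None of the 72 was 2-fold different from all other cells. With each cell rescaled to a common total without the 5 hormone genes, the medians of the chaperone, translocation and ribosomal lists over all other cells were 0.42, 0.33 and -0.28, the same signs as before.

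Prohormone processing and granule genes split. Against all other cells 13 of 23 were above 0, with a median of 0.14. There, 1 (Sytl4) was at least 2-fold higher and 4 (Resp18, Gnas and the cathepsin genes Ctsb and Ctsd) at least 2-fold lower. Against cells led by another hormone 13 were above 0, 1 at least 2-fold higher and 3 at least 2-fold lower, with a median of 0.38. All other cells include the 16 high in Tyrobp, and their part in the cathepsin ratios was not tested. Scg2 and Chga had 1625 against 1050 and 1285 against 787.6 RPKM in cells led by another hormone. Resp18, a granule protein gene of endocrine cells, had 2272 against 6008, and Gnas, which encodes the stimulatory G protein subunit, 49.5 against 194.7. Cpe was nearly level at 1281 against 1216, and Pcsk2 had 457.6 against 534.0 RPKM. Resp18, one of the 20 most even genes, was also over 2-fold lower than in all other cells, with a ratio of -1.04. For exocytosis genes 13 of 19 were above 0 against all other cells, with a median of 0.17 and none 2-fold different. Against cells led by another hormone 2 were at least 2-fold higher, Syt4 and Rab3d, and 2 at least 2-fold lower, Stx1a and Syt5, named after their values were seen.

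Receptors differed one by one. Among 20 hormone and nutrient receptors compared with all other cells, 3 were at least 2-fold higher and 4 at least 2-fold lower, with a median of 0.40. Of all genes compared, 1.88% were at least 2-fold higher and 8.66% at least 2-fold lower. Glp1r, the receptor of the incretin GLP-1, had 13.2 against 1.94 RPKM in cells led by another hormone and was found in 157 of 352 against 9 of 107 cells. The glucagon receptor (Gcgr) had 12.3 against 2.89, the galanin receptor Galr1 12.2 against 1.29 and Igf1r 14.6 against 3.57 RPKM. Without the highest of the 107 cells the means of Gcgr and Galr1 there were 1.82 and 0.773 RPKM. Ffar4, a fatty acid receptor gene, had 1.59 against 21.9 and was found in 3 insulin-only cells, and Gpr119 had 11.9 against 29.7 RPKM. Without their highest insulin-only cell the means of Ffar4 and Gpr119 were 0.10 and 7.40 RPKM. For Gcgr the ratio over cells led by another hormone was 0.92 at full precision and 3.84 in the rounded columns, where its mean of 13.7 RPKM was 7.95 without the highest cell.

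In the glucose sensing list, 2 of 14 genes were at least 2-fold higher than in all other cells, Trpm5 and pyruvate carboxylase (Pcx, 12.1 against 4.03 RPKM), none was 2-fold lower, and the median was 0.13. The channel genes Abcc8 and Kcnj11 had 64.5 against 84.0 and 14.0 against 16.1. Of the 10 compared genes that beta cells normally keep low, all 10 were below 0 and 6 at least 2-fold, with a median of -1.11. Ldha, lactate dehydrogenase A, had 4.35 (2.75 without its highest cell) against 21.6 RPKM and was found in 11 insulin-only cells.

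**Figure D5:**
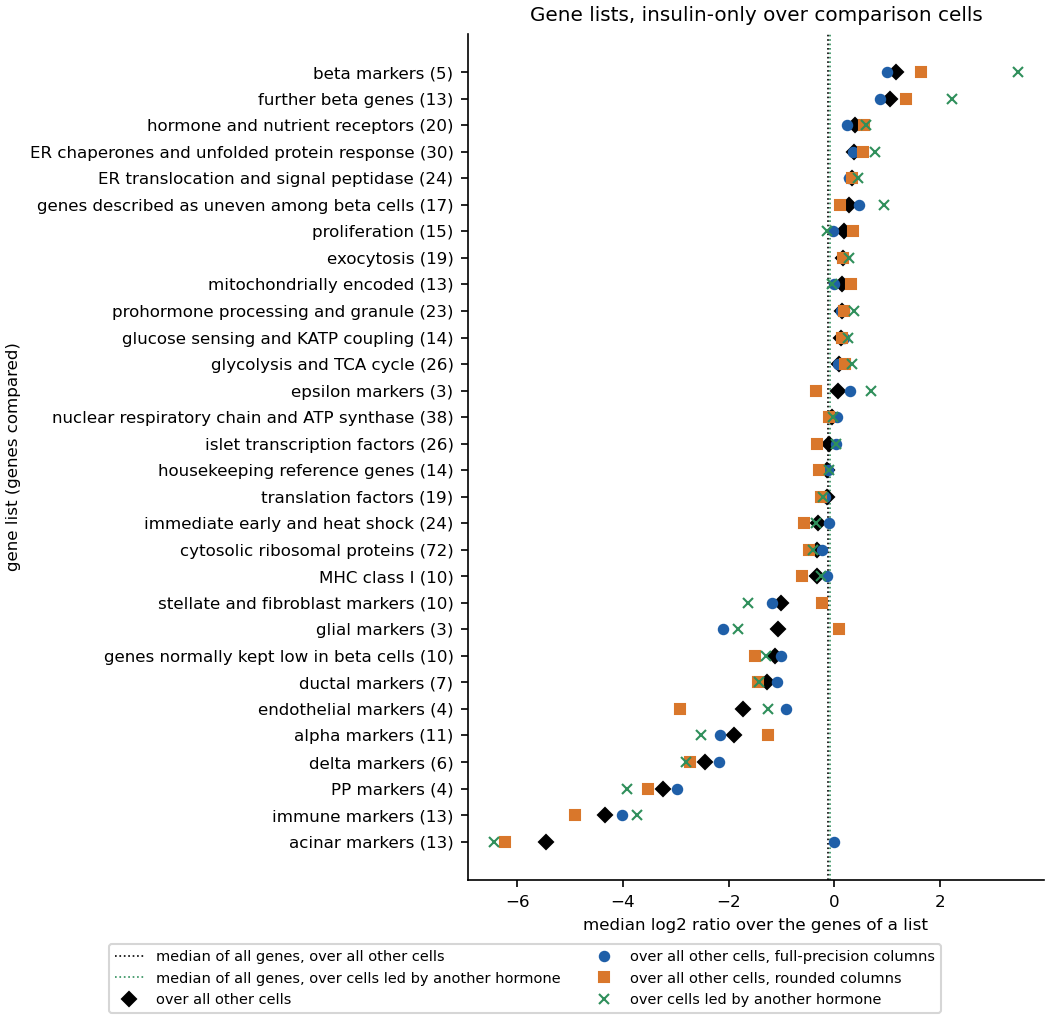
Median log2 ratio of the genes of each list, insulin-only over comparison cells, with the number of genes compared in brackets. Diamonds use all other cells, circles and squares the same within each column set, crosses the cells led by another hormone, and dotted lines the medians of all genes. Beta cell genes lie furthest right and the 2 ER lists between 0.29 and 0.78. Alpha, delta, PP, immune and acinar markers lie furthest left outside the rounded columns, except for the acinar list at 0 in the full-precision columns. In the rounded columns the alpha list, at -1.25, lies right of the endothelial (-2.92), normally low (-1.50) and ductal (-1.44) lists. The delta list, at -2.73, also lies right of the endothelial list there. Cells high in Tyrobp and cells with more Gcg, Sst or Ppy are among the comparison cells by the rule. The immune, beta, alpha, delta and PP lists are therefore not independent of the selection.

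Markers of cells outside the endocrine lineage were low in most insulin-only cells. Summed over each list, the 13 immune markers had a median of 2.99 RPKM and a highest value of 1070, and reached 100 RPKM in 11 cells. The rule leaves out cells with Tyrobp at 100 RPKM or more, so the immune values are not independent of the selection. Stellate and fibroblast markers reached 100 RPKM in 7 cells, acinar markers in 5, glial markers in 3 and endothelial markers in 2, together 24 cells. The highest sum was 9058 RPKM of stellate and fibroblast markers in 1 cell. Cldn5 and Vwf of the endothelial list were listed at 0 in every insulin-only cell. The ductal list was not specific here, since Spp1 and Krt7 had means of 121.2 and 91.4 RPKM, Krt7 in 322 cells, while Sox9 and Krt19, named here as defining ductal genes at a low level, reached 1 RPKM in 2 cells each. Markers of other endocrine cells were more common. Alpha markers summed to 100 RPKM or more in 338 cells, with a median of 1031 RPKM. The sum was led by Ttr and Tm4sf4 at means of 560.4 and 542.5 RPKM, each found in 344 cells, and was not specific here. Over all other cells, 10 of the 11 alpha genes had ratios below 0, 7 of them at least 2-fold, as had 8.66% of all genes compared. Delta markers summed to 100 RPKM or more in 73 cells and PP markers in 80. The rule limits Gcg, Sst and Ppy, so these lists are not independent of the selection. The part of these markers in the other values was not tested. Without the 24 cells, the 30 most abundant genes were the same and 19 of the 20 most even genes were.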

How the data were processed

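RNA sequencing of 622 single islet cells was analysed. The authors deposited 1 table of RPKM values for 44448 Entrez gene IDs. CASAVA 1.8.2, FastQC and GRCm38 (mm10) are named in the submitters' processing notes. No aligner, counter or annotation is given in the sources used here. Of the IDs, 39725 matched a symbol in the RefSeq table (GRCm38.p6).

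Columns were split by number format into 359 at full precision and 263 rounded. Whole reads were recovered from the RPKM steps and gene lengths. Of values below 100 reads, at least 99.9995% were whole within 0.05 in either set, and they were used for depth and thinning only. Recovery, ratios and evenness were tested on simulated data. Means, medians, CVs and ratios came from RPKM as deposited, with a pseudocount of 1, in Python 3.11.15 with pandas 2.3.3 and scipy 1.17.1.

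The members, lists and comparisons were chosen with earlier results of these data known. Named genes were the 30 of highest mean, the 20 of lowest CV whose mean was 100 RPKM or above and that every member held at 1 RPKM, the 10 of highest CV with that mean and 1 RPKM in 50% of members, and the 7 markers. The 15 genes at each end of the ratios, rule genes left out, had a mean of 20 RPKM and were found in 50% of cells in their higher group. List genes were those with large ratios or levels and 5 RPKM in either group, or defining genes at 0. No doublet caller was run. Alternatives changed the rule's thresholds, pseudocount, filter, scaling, summary, column set and comparison cells. A few genes that the rule names are not reported here.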

Additional observations from a re-analysis of the deposited data

How the results depend on the processing

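The number of members was 372 with an insulin share of 95 percent and 247 with the strictest share tried, and between 343 and 355 with other gene filters, a Tyrobp limit of 10 RPKM or Ghrl and Pyy in the sum. At least 29 of the 30 most abundant genes recurred under all 9 alternatives. Evenness moved more. At 10 RPKM in every cell 22 genes were left and 9 of the 20 most even recurred, in the full-precision columns 145 genes and 11 of 20, and 13 of 20 recurred without the 40 cells rich in mitochondrial RNA. Of the 10 least even genes, 4 recurred with the quartile coefficient of dispersion, 5 in the rounded and 6 in the full-precision columns. The median ratio of the 15 higher genes was 1.31, and became 2.47 with medians in place of means and 3.17 over cells led by another hormone only. That of the 15 lower genes was -3.01, and became -2.40 with a pseudocount of 10, -3.62 in the rounded columns and -3.69 over cells led by another hormone only. The share of genes past 2-fold was 10.5% and became 3.04% with no filter on low values, 17.3% and 1.57% with pseudocounts of 0.1 and 10, 3.74% with medians, 23.0% in the rounded columns and 17.8% over cells led by another hormone, the last 5 over the same 12823 genes. The median of the acinar list was 0.00 in the full-precision columns, and that of the glial list 0.0901 in the rounded columns, both below -1 in all columns. The cause of these shifts was not tested. Leaving out the cell where a gene was highest, members rich in mitochondrial RNA, or members holding markers of other cell types was added after seeing the data, and the last 2 left all 33 named ratios within 1.5 times. No paired analysis was possible because the cells form 1 group. Depth limits detection of low genes, so a listed 0 in a cell does not show absence.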
